A study of Mus musculus with 12 samples.

Results

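The 10 genes described here encode core proteins of nucleotide excision repair, and they were matched by symbol to the gene table of 12 libraries of mouse neural stem cells (NSCs). The genes were Xpc, Ddb1, Ddb2, Ercc8, Ercc2, Ercc3, Xpa, Ercc1, Ercc4 and Ercc5, and they are 10 of 45792 genes listed. All 10 passed the filter on low counts, as did 15706 genes in all. RNA was taken from cultures of 3 groups with 4 libraries each. WT NSCs and Ncf1-/- NSCs, which lack the p47phox subunit that activates several NADPH oxidases, carry the label of no treatment, and the methods of the paper state that the Ncf1-/- cultures were given vehicle. Ncf1-/- NSCs of the other group were given the recombinant growth factor-binding protein Igfbp2. The deposited labels give 100 ng/ml, and the methods of the paper give a lower dose. Treatment began 48 h after plating and RNA was collected 48 h later from passaged primary forebrain cultures of pups, with each culture grown from the cells of 1 pup. The replicate numbers run across the groups, so that Ncf1-/- cultures are replicates 1 to 4, Igfbp2-treated cultures 5 to 8 and WT cultures 9 to 12.

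Nucleotide excision repair removes bulky lesions that distort the DNA helix, such as those made by ultraviolet light. Damage is found either by sensors that scan the whole genome or by an RNA polymerase that stalls on a transcribed strand, and both routes then use the same helicases, nucleases and gap-filling polymerases. Inherited defects in many genes of the pathway cause xeroderma pigmentosum, Cockayne syndrome or trichothiodystrophy, and the nervous system is affected in some forms.

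The genes lie on 9 chromosomes in the GRCm38 build, the build that the labels name, with Ercc1 and Ercc2 close together on chromosome 7. Ercc4 spans 13109684 to 13150617 on the forward strand of chromosome 16, Ercc5 spans 44147744 to 44181260 on the forward strand of chromosome 1, and Ddb2 spans 91211572 to 91236982 on the reverse strand of chromosome 2. RefSeq promoter windows of the same build, from 250 bases before to 50 bases after the annotated start, were held for 7 of the 10 genes. Those of Ercc4 and Ercc5 are shown because these genes had the smallest p-values between genotypes among the 10, that of Ercc1 because its protein is the partner of the Ercc4 protein, and that of Pole2 because it rose most among the later genes of the pathway. Capitals mark the motifs searched.
Ercc4, chr16:13109486-13109785, forward strand: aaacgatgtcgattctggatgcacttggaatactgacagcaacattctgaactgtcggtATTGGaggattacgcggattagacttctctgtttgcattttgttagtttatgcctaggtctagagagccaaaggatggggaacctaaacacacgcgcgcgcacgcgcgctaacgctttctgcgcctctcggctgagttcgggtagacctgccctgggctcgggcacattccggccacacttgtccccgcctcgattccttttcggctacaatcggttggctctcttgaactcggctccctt
Ercc5, chr1:44147494-44147793, forward strand: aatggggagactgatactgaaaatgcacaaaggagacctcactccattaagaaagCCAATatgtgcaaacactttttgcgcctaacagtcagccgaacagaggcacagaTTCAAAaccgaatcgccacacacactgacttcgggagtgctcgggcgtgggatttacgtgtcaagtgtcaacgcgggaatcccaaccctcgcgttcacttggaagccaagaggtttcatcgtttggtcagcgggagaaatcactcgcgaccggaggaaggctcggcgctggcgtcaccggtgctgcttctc
Ercc1, chr7:19344821-19345120, forward strand: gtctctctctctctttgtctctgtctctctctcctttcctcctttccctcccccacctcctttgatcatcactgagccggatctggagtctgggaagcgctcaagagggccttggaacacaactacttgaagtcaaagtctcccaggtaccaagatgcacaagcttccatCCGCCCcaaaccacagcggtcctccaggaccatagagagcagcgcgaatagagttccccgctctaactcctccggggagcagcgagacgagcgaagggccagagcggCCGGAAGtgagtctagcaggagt
Pole2, chr12:69228141-69228440, reverse strand: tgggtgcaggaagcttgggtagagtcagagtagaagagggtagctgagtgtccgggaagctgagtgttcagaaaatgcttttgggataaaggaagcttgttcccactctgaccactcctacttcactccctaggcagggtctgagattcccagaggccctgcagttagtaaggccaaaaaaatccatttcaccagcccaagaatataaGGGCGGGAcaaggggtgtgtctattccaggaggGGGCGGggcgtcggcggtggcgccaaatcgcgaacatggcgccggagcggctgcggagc

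Both strands were searched for 5 motifs, which were chosen with earlier results of these data known. The core of E2F sites (GGCGGGA) was found in 1 of 7 member windows, that of Ddb1. The same letters were in 8 of 21 windows (38.1%) of the gap-filling and ligation genes of the pathway and in 11.3% of all 32851 windows. The CCAAT box (CCAAT) was in 5 of 7 member windows, those of Ercc2, Ercc4, Ercc5, Ercc8 and Xpa, and in 37.4% of all windows. The GC box (GGGCGG), which can share letters with the E2F core as it does in the Pole2 window, was in 4 of 7 member windows and in 35.7% of all. The core of ETS sites (CCGGAAG) was found only in the Ercc1 window among the members (8.86% of all windows), and the CHR element (TTTGAA) only in the Ercc5 window (17.9% of all). In the 21 windows of the gap-filling and ligation genes, the GC box was in 14 (66.7%) and the ETS core in 6 (28.6%). The CCAAT box was in 6 of them (28.6%) and the CHR element in 1 (4.76%), so the E2F core was not alone in exceeding its share of all windows. These are matches of letters in 1 window per member, and binding was not measured.

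Expected counts, the number of reads that RSEM assigns to each gene, summed to between 18201622 and 34086554 per library. Levels are given as CPM scaled by TMM factors, with mean ± SD over 4 libraries, and tests are edgeR's quasi-likelihood test with Benjamini-Hochberg adjustment over all genes, called at an adjusted p under 0.05. Ncf1 had 1 to 7 counts in each library of the 3 groups, which does not check the genotype. Y-linked genes summed to 105 to 115.5 CPM in the Ncf1-/- libraries and to 7.79 to 9.18 CPM in the Igfbp2-treated libraries, although paired cultures are described in the methods as grown from the same animals. In these libraries Igfbp2 treatment and sex-linked expression therefore cannot be told apart. WT replicate 12 stood at 6.46 CPM and the other WT libraries at 107 to 118 CPM. A second sample sheet in the supplement of the paper lists the library numbered 12 as given apocynin, and results without it are stated below. The WT libraries differed among themselves and from the other groups in markers of cell types. The 5 oligodendrocyte markers summed to between 1479 CPM (replicate 11) and 8913 CPM (replicate 10) in WT and to 189 to 245 CPM in Ncf1-/- libraries, with all 5 lower. The 5 NSC markers summed to 1285 to 5595 CPM in WT, 4834 to 5558 CPM in Ncf1-/- and 5195 to 5554 CPM in Igfbp2-treated libraries. Vim had the highest level of the 5 in each library, and between Ncf1-/- and WT 1 NSC marker was called higher and 3 lower, with Nes at 118 to 447 CPM in WT and 696 to 960 CPM in Ncf1-/- libraries and Sox2 at 371 to 408 and 191 to 200 CPM. The 6 proliferation markers summed to 283 to 544 CPM in WT and to 1225 to 1626 CPM in Ncf1-/- libraries, with all 6 higher. Neuron markers (3 of 5 called lower) were at 82.7 to 138 CPM in WT and 21.0 to 24.0 CPM in Ncf1-/- libraries, and astrocyte markers (4 of 5 called lower) at 6258 to 11431 and 2619 to 3178 CPM. Mesenchymal markers were at 9.87 to 24.2 CPM in WT, 10.8 to 13.9 CPM in Ncf1-/- and 23.4 to 26.7 CPM in Igfbp2-treated libraries. Between Ncf1-/- and WT, 4 of the 5 were called higher and 1 lower, Pdgfrb, which alone reached 4.88 to 23.5 CPM in WT and at most 0.485 CPM in Ncf1-/- libraries. The microglia and endothelial lists stayed at or under 1.45 CPM, with Aif1, Cx3cr1, Tmem119 and Cdh5 at 3 counts or fewer. In such bulk samples, fewer cells of a type and less RNA per cell cannot be told apart.

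Per transcript length, the members spanned a wide range of levels. In WT NSCs, Ddb1 had a TPM of 89.8 ± 9.80 and Ddb2 a TPM of 0.978 ± 0.337 (SD, n = 4), the highest and the lowest of the 10. Ercc1 came next to Ddb1 with a TPM of 14.3 ± 1.90, followed by Ercc3 (9.98 ± 0.630), Xpa (8.63 ± 3.18), Ercc5 (7.96 ± 1.17), Ercc2 (7.23 ± 1.84) and Ercc4 (6.28 ± 0.745). Xpc (3.98 ± 1.02) and Ercc8 (3.71 ± 0.440) stood below them. The TPM ranges of Ercc1 and Ercc3 did not overlap in WT, nor did those of Ercc4 and Xpc or of Ercc8 and Ddb2, whereas Ercc3, Xpa, Ercc5, Ercc2 and Ercc4 each overlapped their neighbors in this order, as did Xpc and Ercc8. In Ncf1-/- NSCs, Ercc5 reached a TPM of 10.2 ± 1.92 and Ercc4 a TPM of 4.34 ± 0.520, so that these genes lay further apart in the order of means. The range of Ercc5 (8.75 to 12.95) still overlapped that of Xpa (9.72 to 10.4), the gene it passed.

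**Figure D1:**
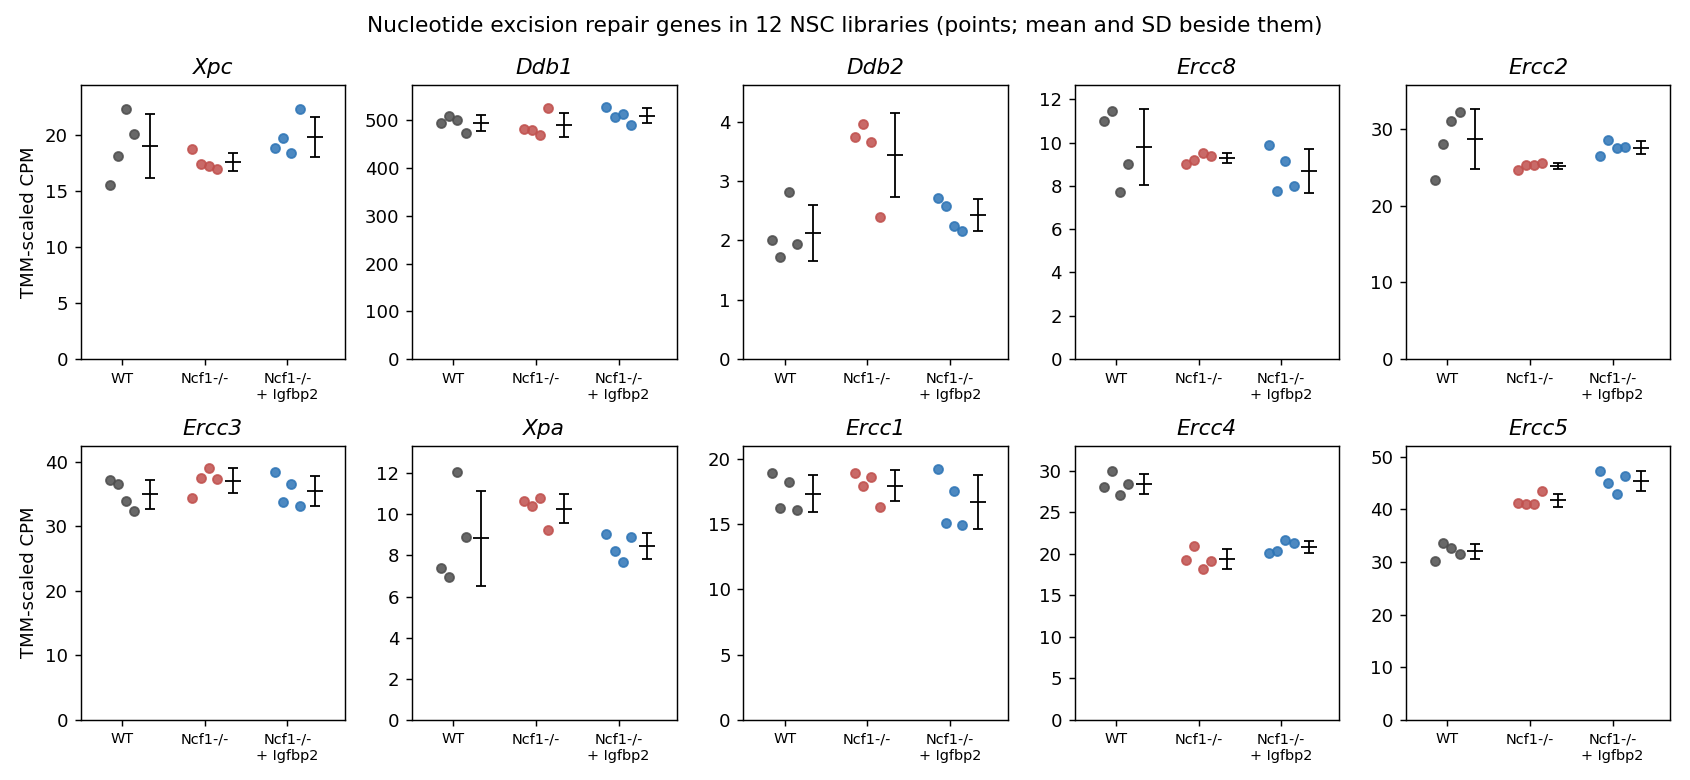
TMM-scaled CPM (vertical axis, from 0) of each of the 10 genes in the 12 libraries, in 3 groups of 4, with points for libraries and the mean and SD of each group beside them. The Ercc4 points of WT (27.1 to 30.0) lie above all others, and the Ercc5 points of WT (30.2 to 33.5) below all others.

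The first comparison sets the 2 genotypes side by side, without Igfbp2 treatment. Between Ncf1-/- and WT NSCs, 3 of the 10 genes were called, against 56.9% of all genes tested. Ercc5 and Ddb2 rose, where 28.8% of all genes were called higher, and Ercc4 fell, where 28.1% were called lower. The libraries of the genotypes did not overlap for 2 of the 10, Ercc4 and Ercc5, against 51.2% of all genes. The median size of the log2 fold change was 0.15 over the members and 0.45 over all genes tested. Neither the share called nor the share without overlap stood above that of all genes.

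Both called genes without overlap encode the nucleases that cut the damaged strand. Ercc4 (XPF) is the catalytic subunit of the nuclease that cuts on the 5′ side of a lesion. It stood at 28.1, 30.0, 27.1 and 28.4 CPM in WT replicates 9 to 12 and at 19.3, 21.0, 18.1 and 19.1 CPM in Ncf1-/- replicates 1 to 4. Each WT library was above each Ncf1-/- library, and the spread within a group was small beside the gap. The fitted log2 fold change of Ercc4 was −0.55 (SE 0.07, adjusted p = 2.25e-05), which is 0.683 of the WT level. Ercc5 (XPG) makes the cut on the 3′ side. It stood at 30.2, 33.5, 32.7 and 31.5 CPM in WT replicates 9 to 12 and at 41.3, 41.0, 41.1 and 43.5 CPM in Ncf1-/- replicates 1 to 4. The genotypes did not overlap in the opposite order to Ercc4, and the log2 fold change of Ercc5 was 0.38 (SE 0.06, adjusted p = 0.000192), a rise of 1.30-fold. Ercc1, the noncatalytic partner that XPF needs for its stability, stood at 17.3 ± 1.44 CPM in WT and at 17.9 ± 1.19 CPM in Ncf1-/- NSCs (SD, n = 4). Its log2 fold change was 0.05 (95% confidence interval −0.17 to 0.26), and the groups overlapped.

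WT replicate 11 had the lowest sum of oligodendrocyte markers among WT libraries. Its level of Ercc4 (27.1 CPM) was the lowest and that of Ercc5 (32.7 CPM) the second highest of the 4. WT replicate 10, with the highest sum, had the highest WT level of both Ercc4 (30.0 CPM) and Ercc5 (33.5 CPM). The summed levels of the oligodendrocyte, neuron, astrocyte and proliferation markers did not overlap between the genotypes either, and their part in these differences was not tested. Without WT replicate 12, the log2 fold changes were −0.58 for Ercc4 and 0.34 for Ercc5, and the same 3 genes were called, against 8806 of 15992 genes. On unscaled TPM, Ercc5 was higher in Ncf1-/- NSCs but not called (adjusted p from 0.127 to 0.400 in 3 tests), whereas Ercc4 was called in each of them.

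Among the genes that find damage across the genome, Ddb2 alone was called. DDB2 binds ultraviolet lesions in chromatin together with DDB1, the adaptor of a CUL4 ubiquitin ligase, and hands them to XPC. Ddb2 stood at 2.001, 1.73, 2.81 and 1.95 CPM in WT replicates 9 to 12 and at 3.75, 3.97, 3.66 and 2.39 CPM in Ncf1-/- replicates 1 to 4. In 3 of the 4 Ncf1-/- libraries it was above each WT library, while Ncf1-/- replicate 4 lay below WT replicate 11. The log2 fold change of Ddb2 was 0.67 (SE 0.20, adjusted p = 0.0122), and it rests on 32 to 98 counts per library in these 2 groups. By the study's test on TPM, Ddb2 was not called (adjusted p = 0.0691). Ddb1 was at 495 ± 15.9 CPM in WT and 489 ± 25.3 CPM in Ncf1-/- NSCs, with a log2 fold change of −0.02 (95% confidence interval −0.18 to 0.15). Xpc, the sensor itself, was at 19.0 ± 2.88 and 17.6 ± 0.813 CPM, with a log2 fold change of −0.11 (95% confidence interval −0.35 to 0.12).

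Neither Ercc8 nor any member of the later steps other than the nucleases was called between the genotypes. Ercc8 (CSA), which acts at RNA polymerase stalled on a lesion, stood at 7.72 (replicate 11) to 11.4 CPM (replicate 10) in WT and at 9.02 to 9.54 CPM in Ncf1-/- NSCs. Ercc2 (XPD) and Ercc3 (XPB) are the helicases of TFIIH, the complex that opens DNA around a lesion and also serves transcription. Ercc2 had a log2 fold change of −0.19 (95% confidence interval −0.38 to 0.01, adjusted p = 0.0931), with 23.4 to 32.2 CPM in WT and 24.6 to 25.6 CPM in Ncf1-/- NSCs. Ercc3 had a log2 fold change of 0.08 (95% confidence interval −0.08 to 0.25). Xpa, which verifies the damage and holds the incision complex together, ranged from 6.96 to 12.1 CPM in WT and from 9.25 to 10.8 CPM in Ncf1-/- NSCs, with a log2 fold change of 0.21 (95% confidence interval −0.12 to 0.54). The WT libraries were the more variable for these genes, and single WT libraries decided some calls. Without WT replicate 11, Xpa was called (log2 fold change 0.41, adjusted p = 0.0088), and without WT replicate 9, Ercc2 was called (log2 fold change −0.28, adjusted p = 0.00674). Without TMM factors, scaled by library totals alone, the median of all genes moved to 0.19 and Ercc3 was called (log2 fold change 0.26, adjusted p = 0.0172).

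**Figure D2:**
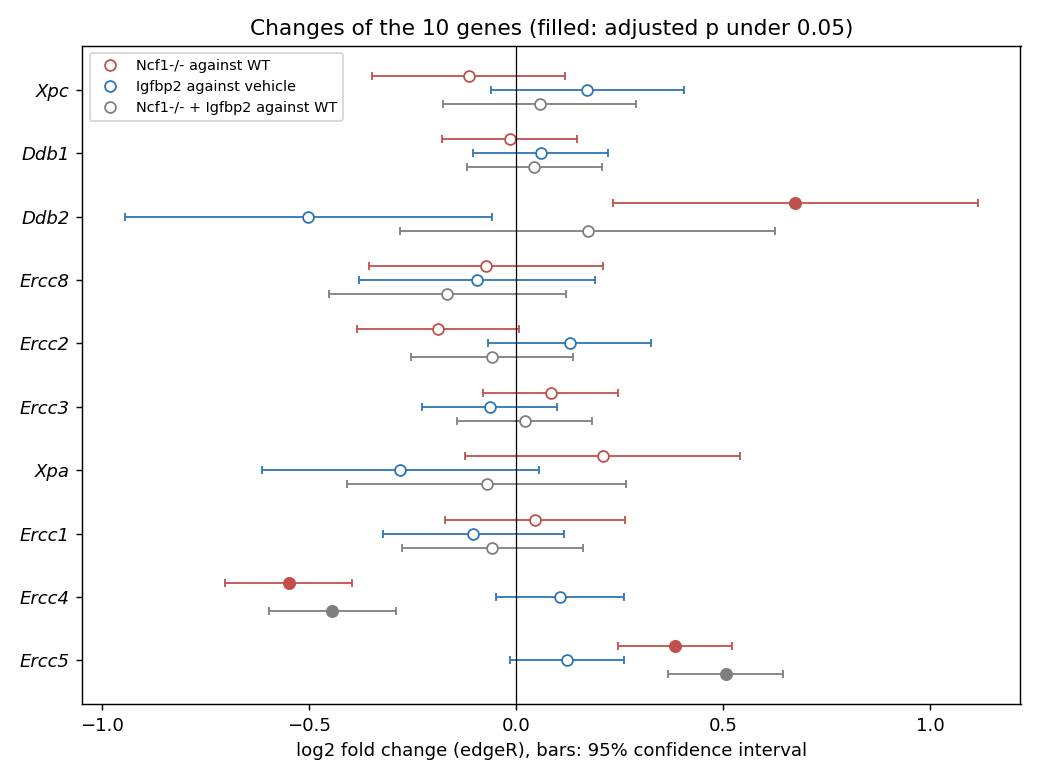
Log2 fold changes (horizontal axis) of the 10 genes with 95% confidence intervals in 3 comparisons, filled where the adjusted p was under 0.05. Ercc4 lies at −0.55 and −0.44 and Ercc5 at 0.38 and 0.51 against WT, and no point of the comparison of Igfbp2 with vehicle is filled.

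The second comparison sets Igfbp2-treated against vehicle-treated Ncf1-/- NSCs, where treatment and sex-linked expression cannot be told apart. None of the 10 genes was called (0 of 10), against 24.8% of all genes tested, of which 14.2% were called higher and 10.7% lower. DESeq2 also called 0 of 10, against 4287 of 15649 genes, and 1 member, Ddb2, had an unadjusted p under 0.05 by edgeR. The groups did not overlap for 2 of the 10 genes, Ercc2 and Xpa, against 34.1% of all genes. The median size of the log2 fold change was 0.11 over the members and 0.25 over all genes.

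Ddb2 stood at 2.71, 2.58, 2.25 and 2.16 CPM in Igfbp2-treated replicates 5 to 8, below 3 of the 4 Ncf1-/- libraries and on both sides of replicate 4. Its log2 fold change against Ncf1-/- NSCs was −0.50 (SE 0.21, adjusted p = 0.0897). Without Ncf1-/- replicate 4 it was −0.63 and was called (adjusted p = 0.0319). Xpa was at 9.03, 8.23, 7.70 and 8.89 CPM in the Igfbp2-treated libraries, each below the lowest Ncf1-/- library, with a log2 fold change of −0.28 (SE 0.16, adjusted p = 0.202). Ercc2 was at 26.5, 28.5, 27.5 and 27.6 CPM, each above the highest Ncf1-/- library, with a log2 fold change of 0.13 (SE 0.09, adjusted p = 0.314) that turned to −0.14 on rescaled TPM. Ercc4 and Ercc5 had log2 fold changes of 0.11 (95% confidence interval −0.05 to 0.26) and 0.12 (95% confidence interval −0.02 to 0.26). For Ercc1, Ercc3, Ercc8, Xpc and Ddb1 the log2 fold changes lay between −0.10 and 0.17.

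The count of called members in this comparison depended on the fit and the scale. With the preparation number as a block, which pairs the cultures as the paper states, 2 members were called, Ddb2 (log2 fold change −0.54, adjusted p = 0.0315) and Xpa (log2 fold change −0.33, adjusted p = 0.0387), and the same 2 were called with only these 2 groups in the fit. Of all genes, 5487 of 15101 were called with the block and 5716 of 15101 with only these 2 groups. Y-linked levels differed within each of these stated pairs, so the block rests on a pairing that the libraries do not bear out. With library totals the split of all called genes turned from 2224 higher and 1673 lower to 625 higher and 5229 lower, the median of all genes moved to −0.23, and 5 members were called lower. On log2(TPM + 1), where that median was −0.30, 7 were called lower, and of all genes 209 were called higher and 6109 lower. After each library's TPM was rescaled to a common median, a choice made after seeing the data, 0 of 10 were called, against 3278 of 15706 genes.

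The third comparison sets Igfbp2-treated Ncf1-/- NSCs against WT, and it shares both groups with the comparisons above. Y-linked genes summed to 7.79 to 9.18 CPM in the Igfbp2-treated libraries and to 107 to 118 CPM in WT other than replicate 12 (6.46 CPM). Sex-linked expression is thus largely confounded with this comparison. Here 2 of the 10 genes were called, against 62.3% of all genes tested. Ercc5 was higher, where 31.5% of all genes were called higher, and Ercc4 was lower, where 30.7% were called lower. These 2 genes were also those whose groups did not overlap, against 54.3% of all genes. Ercc4 stood at 20.2, 20.3, 21.7 and 21.3 CPM in replicates 5 to 8, each below the WT libraries, with a log2 fold change of −0.44 (SE 0.07, adjusted p = 0.00013). Ercc5 stood at 47.3, 45.0, 42.8 and 46.4 CPM, each above the WT libraries, with a log2 fold change of 0.51 (SE 0.06, adjusted p = 1.88e-05). Ddb2 had a log2 fold change of 0.17 (95% confidence interval −0.28 to 0.63). The other 7 had log2 fold changes between −0.17 and 0.06, and the median size was 0.06 over the members and 0.51 over all genes. On log2(TPM + 1), on which the median of all genes was −0.25, Ercc5 was level with WT (−0.01), and after the rescaling of TPM it was 0.35 (adjusted p = 0.00526). Without WT replicate 12 the same genes were called, against 9946 of 15992 genes, with log2 fold changes of −0.51 for Ercc4 and 0.43 for Ercc5. In that fit the groups and sex-linked expression cannot be told apart.

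A list of 40 further genes of the pathway gives the setting of these members. Between Ncf1-/- and WT NSCs, 26 of the 40 rose and 4 fell, where 28.8% of all genes were called higher and 28.1% lower, with a median log2 fold change of 0.47, against 0.02 over all genes. Those that fill the gap after excision are the clamp, clamp loaders and polymerases of DNA replication and the bypass polymerase gene Polk. They held 14 of 15 genes called higher, against the same 28.8%, with a median of 1.04. Polk was called at an adjusted p of 0.0475 by edgeR and in 4 of 20 alternatives. Pole2, a subunit of polymerase epsilon, rose most (log2 fold change 1.88, SE 0.22), followed by Rfc4 of the clamp loader (1.73, SE 0.15) and Pold1, the catalytic subunit of polymerase delta (1.70, SE 0.15). The 3 genes of RPA, which coats the single strand and is shared with replication, were also all called higher (0.88 to 1.27). The proliferation markers moved with these genes, 6 of 6 higher, and their part in the change was not tested.

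The genes closer to the members were called in both directions between the genotypes, at shares to be read against the 56.9% called among all genes. Of the 8 further TFIIH genes, 3 rose and 2 fell, among them Cdk7, its kinase (−0.44, SE 0.07). Of the 6 further recognition genes, 3 rose and 0 fell. Of the 5 further transcription-coupled genes, 1 rose and 1 fell, the latter being Ercc6 (CSB), which acts with Ercc8 (−0.56, SE 0.11). Of the 3 ligation genes, Lig1 and Xrcc1 rose and Lig3 fell (−0.41, SE 0.07). Each change named here had an adjusted p of at most 0.00511 by edgeR.

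Between Igfbp2-treated and Ncf1-/- NSCs, 5 of the 40 genes were called, against 24.8% of all genes. Among those called, Pold4 (log2 fold change 0.91, SE 0.23) and the bypass polymerase gene Polk (0.32, SE 0.10) rose. The TFIIH gene Gtf2h1 (−0.41, SE 0.10) and Pole3 (−0.31, SE 0.09) fell, and 35 were not called. The call of Polk was made in 7 of 21 alternatives and that of Pold4 in 18. With the preparation block, 10 of the 40 were called, against 5487 of 15101 genes. Against WT, the Igfbp2-treated NSCs had 28 of the 40 higher and 5 lower, where 31.5% and 30.7% of all genes were called. The proliferation markers (6 of 6 higher, 1181 to 1468 CPM in Igfbp2-treated libraries) and the oligodendrocyte markers (5 of 5 lower, 206 to 278 CPM) moved with them, and their part was not tested. The largest rises were in Pold1 (1.91, SE 0.15), Pole2 (1.71, SE 0.22) and Rfc4 (1.49, SE 0.15), and the largest falls in Gtf2h1 (−0.77, SE 0.10), Cdk7 (−0.60, SE 0.07) and Ercc6 (−0.49, SE 0.11).

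**Figure D3:**
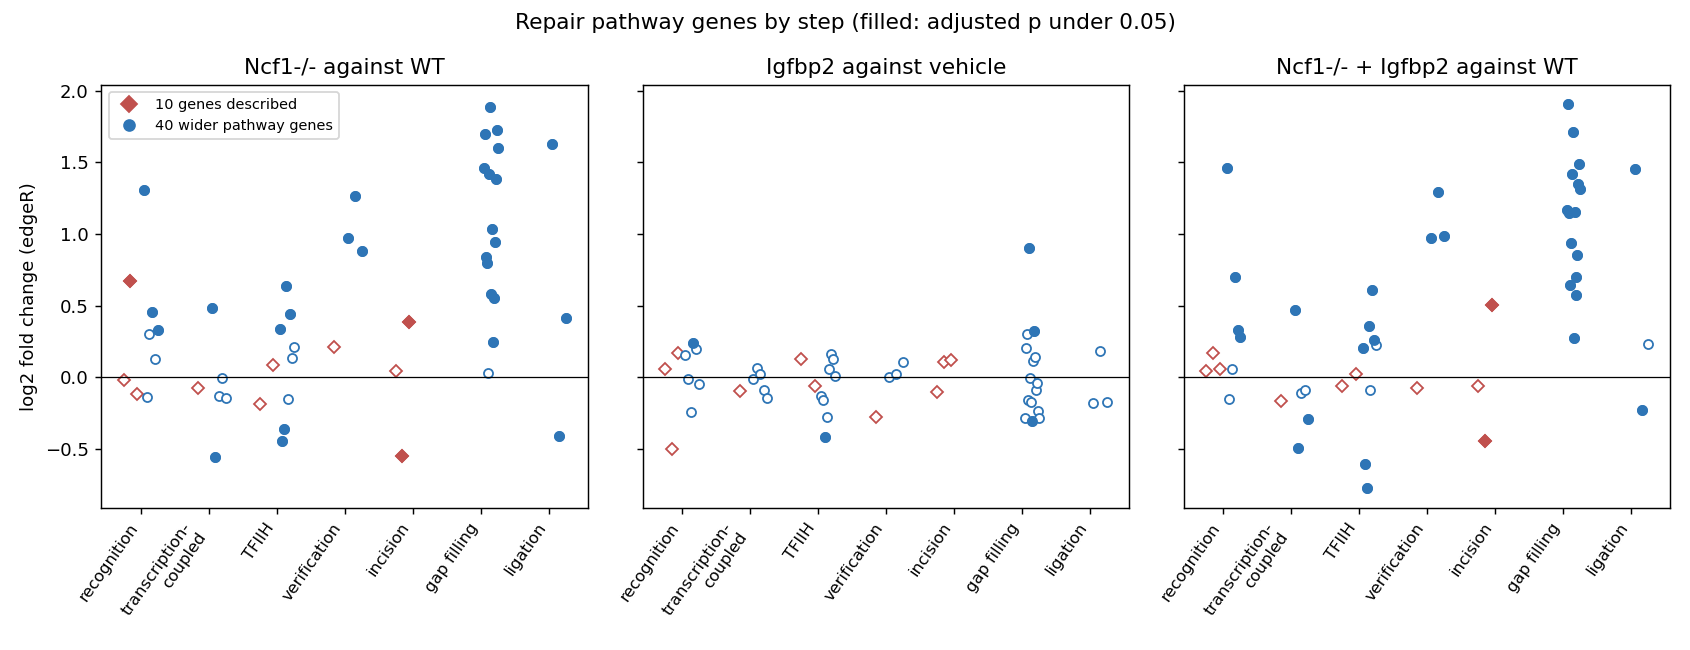
Log2 fold changes (vertical axis) of the 10 genes (diamonds) and 40 further genes (circles) by step of the pathway in 3 comparisons, filled where the adjusted p was under 0.05. Against WT the gap-filling genes reach 1.88 and 1.91, while the 10 genes lie between −0.55 and 0.67.

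Ratios of TPM between genes whose proteins bind each other do not depend on the scaling between libraries. The Ercc4/Ercc1 ratio was 0.385, 0.512, 0.397 and 0.470 in WT replicates 9 to 12 and 0.262, 0.304, 0.268 and 0.350 in Ncf1-/- replicates 1 to 4. Each Ncf1-/- library lay below each WT library. The two-sided exact permutation test gave p = 0.0286, the smallest that 4 against 4 allows. The adjusted p was 0.321 over 15 tests (5 ratios in 3 comparisons). A ratio at the smallest p cannot pass unless many of the others also reach it, so the adjusted p does not decide here. With Igfbp2 the ratio was 0.280, 0.332, 0.284 and 0.445, overlapping both other groups. The Ddb2/Ddb1 ratio was 0.0107 ± 0.0026 in WT, 0.0178 ± 0.0037 in Ncf1-/- and 0.0126 ± 0.0011 in Igfbp2-treated NSCs (SD, n = 4), with overlapping groups and an exact permutation p of 0.0571 for the genotypes. The Ercc3/Ercc2 ratio ranged from 1.19 to 1.96, the Ercc8/Ddb1 ratio from 0.0299 to 0.0463 and the ratio of Rad23b, a partner of Xpc, to Xpc from 11.8 to 20.5 over the 12 libraries. For these 3 ratios the groups overlapped in every comparison, and, under the same limit, no adjusted p of the 15 tests was under 0.321.

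**Figure D4:**
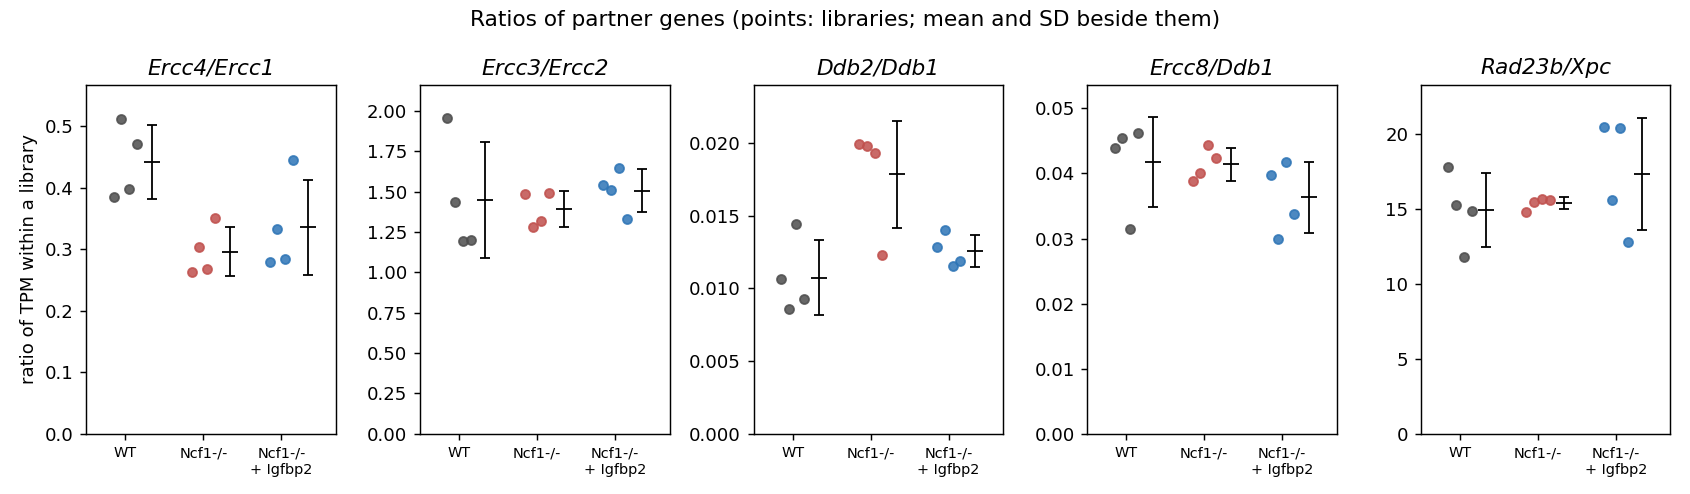
Ratios of TPM of 5 gene pairs (vertical axes, from 0) in the 12 libraries, with points for libraries and the mean and SD of each group beside them. The 4 WT points of Ercc4/Ercc1 (0.385 to 0.512) lie above the 4 Ncf1-/- points (0.262 to 0.350), and the groups overlap for the other pairs.

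Of the 10 genes, 5 share exonic bases with a gene on the opposite strand in the GENCODE annotation of GRCm38, and a strand setting of the counting is not given in the sources used here, so that reads from the shared bases may not be told apart. Ddb2 shares 652 of its 2736 exonic bases with Acp2, a lysosomal phosphatase gene at 75.1 CPM in WT and 60.3 CPM in Ncf1-/- NSCs. Acp2 fell (log2 fold change −0.32, adjusted p = 0.00329) where Ddb2 rose. Ercc2 shares 1025 of 4170 exonic bases with the antisense gene Gm26852 and 744 with Klc3, and these stood at 0.811 to 4.83 CPM as group means. Klc3 rose between the genotypes (log2 fold change 1.30) and again with Igfbp2 (1.28), whereas Gm26852 fell with Igfbp2 (−1.13, adjusted p = 0.0210). Ddb1 shares 328 of 6409 exonic bases with Tkfc (20.4 to 23.4 CPM), Ercc1 106 of 3111 with Cd3eap (7.92 to 11.3 CPM) and Xpa 77 of 1894 with Ncbp1 (54.5 to 63.8 CPM), all as group means. Ercc4 and Ercc5 overlap no annotated gene.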

How the data were processed

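RNA depleted of rRNA from 12 NSC cultures was mapped with Bowtie2 and quantified with RSEM by the authors, to a build that the labels name as GRCm38. The authors deposited for each library the expected count per gene, without normalization, and the TPM, which RSEM scales to a fixed sum per library. The FPKM columns deposited by the authors were not used. A merged table deposited by the authors holds a score that equals each TPM times its count of transcript isoforms (within 0.01 for 100% of 257083 values above 0), and it served only to match symbols. Expected counts above 0 were not whole in 33.8% of cases and were rounded. The unit of the main test, counts, differs from the TPM that the study tested.

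The members, the 40 further genes, the markers and the motifs were chosen with earlier results of these data known. Counts were analysed with edgeR 4.0.16 in R 4.3.3 (filterByExpr, TMM, robust quasi-likelihood, 1 mean per group, all 12 libraries). All 10 members are named in each comparison. Of the 40 genes, those at 5 CPM or more on average were ranked, and the top 3 called in each direction are named. A result that this rule would name is not reported here. Other genes are named as partners, neighbors or values that a result turns on. Alternatives were DESeq2 1.42.0, library totals, no filter, only 2 groups, limma 3.58.1 on log2(TPM + 1), log2(TPM + 0.1), the study's ANOVA with Tukey's post hoc test, and each library left out. Rescaled TPM was added after seeing the data. The pairing of replicates 1 to 4 with 5 to 8 comes from the sample sheet and methods of the paper. Same-numbered cultures had correlations of deviations from −0.11 to 0.10 (4 pairs), and others from −0.36 to 0.38 (12 pairs). The chi-square per degree of freedom between replicates was at least 4.40, so that all were counted as separate. The test was tried on simulated data. Neither the sharing of animals that the paper states nor other sources of error beyond these samples enter the p-values of the unblocked fits.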

Additional observations from a re-analysis of the deposited data

Results flagged for a closer look

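Among 45 groups of 4 values (the CPM of each member and the 5 partner ratios in each group of libraries), 3 held a library far from the other 3, where chance flags about 1 in 20. Ercc5 stood at 43.5 CPM in Ncf1-/- replicate 4, above 41.0 to 41.3 CPM in the others. The Ddb2/Ddb1 TPM ratio was 0.0123 in the same library, below 0.0193 to 0.0199 in the others. The Ercc8/Ddb1 TPM ratio was 0.0314 in WT replicate 11, below 0.0438 to 0.0463 in the others. Ncf1-/- replicate 4 also had the highest sum of proliferation markers in its group (1626 CPM), and WT replicate 11 was the deepest library (34086554 counts).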

How the results depend on the processing

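Ercc4 was called lower against WT in Ncf1-/- NSCs in 20 of 20 alternatives, and Ercc5 was higher in 20 and called in 17. Leaving out each library gave log2 fold changes from −0.58 to −0.52 for Ercc4, 0.32 to 0.41 for Ercc5 and 0.57 to 0.86 for Ddb2, all called.

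For Ncf1-/- against WT, the study's test on TPM called 1 member and 18 of the 40 further genes, against 4329 of 27880 genes tested. Small values that were not called changed sign there. With library totals these were Xpc (0.06), Ddb1 (0.16) and Ercc8 (0.11). On log2(TPM + 1) they were Ddb1 (0.03), Ercc8 (0.03) and Ercc2 (0.13), on log2(TPM + 0.1) Ddb1 (0.03), Ercc8 (0.03) and Ercc2 (0.15), and with the study's test Ddb1 (0.03), Ercc8 (0.04) and Ercc2 (0.13). On rescaled TPM Ercc2 was 0.08 and Ercc1 −0.02, without a filter Ddb1 was 0.0015, and with only 2 groups it was 0.01. Leaving out a library moved Ddb1 between −0.09 and 0.01 and Ercc1 between −0.02 and 0.09.

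For Igfbp2 against vehicle, the members called were 5 with library totals, 7 on log2(TPM + 1), 7 on log2(TPM + 0.1), 2 with only 2 groups, 2 with the replicate block and 0 to 1 on leaving out a library (1 without Ncf1-/- replicate 4). The further genes called were 20, 27, 27, 11, 10 and 2 to 8, and 3 without a filter (2 without Ncf1-/- replicates 1 or 2 or Igfbp2-treated replicate 6, 3 without Ncf1-/- replicate 3 and 8 without Ncf1-/- replicate 4). Of all 15706 genes, 5854 were called with library totals, 6318 on log2(TPM + 1) and 6471 on log2(TPM + 0.1). Of 15101 genes, 5716 were called with only 2 groups and 5487 with the block. Leaving out a library gave 2284 to 4845 called genes, and no filter gave 3132 of 27697. With library totals, Xpc (−0.10), Ddb1 (−0.21), Ercc2 (−0.14), Ercc4 (−0.17) and Ercc5 (−0.15) changed sign. In that order of genes the values were −0.23, −0.41, −0.55, −0.32 and −0.33 on log2(TPM + 1), −0.29, −0.42, −0.63, −0.40 and −0.36 on log2(TPM + 0.1), and −0.29, −0.41, −0.64, −0.40 and −0.37 with the study's test. On rescaled TPM Ercc2 was −0.14. The median of all genes on these scales was −0.23, −0.30, −0.42 and −0.43, and 0.04 with TMM. Leaving out a library moved Ddb1 between −0.001 and 0.11.

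For Igfbp2-treated Ncf1-/- NSCs against WT, 5 members were called on log2(TPM + 1), 5 on log2(TPM + 0.1), and 1, with 11 further genes, by the study's test. Of all genes, 8849 and 9054 of 15706 were called on these log2 scales, and 5592 of 27879 by the study's test. Xpc, Ddb1 and Ercc3 changed sign with library totals (−0.04, −0.05 and −0.07), and with Ddb2 and Ercc5 on log2(TPM + 1) (−0.28, −0.38, −0.35, −0.07 and −0.01), on log2(TPM + 0.1) (−0.35, −0.39, −0.39, −0.13 and −0.02) and with the study's test (−0.38, −0.37, −0.37, −0.17 and −0.01). Ercc3 was −0.01 with only 2 groups and −0.0017 by DESeq2. Leaving out a library moved Xpc between −0.03 and 0.15, Ddb1 between −0.05 and 0.06, Ercc3 between −0.09 and 0.05 and Xpa between −0.23 and 0.13 (0.13 without WT replicate 11). Ercc4 was called in each alternative. The partner ratios with a library left out have no test, since 4 against 3 allows no p below 0.0571. The replicate block changed no other call of a member. The causes were not tested beyond the shift of the median. Depth limits Ddb2 most, at 32 to 98 counts.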

Other observations

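RSEM's effective length of Ercc2, a mean over its transcripts weighted by their share, was 2391 ± 257 bases in Ncf1-/- libraries, 2917 ± 151 in WT and 2918 ± 214 in Igfbp2-treated libraries (SD, n = 4). The Ncf1-/- libraries (2169 to 2673) lay below all others (2710 to 3173). The TPM of Ercc2 contains this length and its TMM-scaled CPM does not, and the 2 scales gave opposite directions between Igfbp2-treated and Ncf1-/- NSCs. With library totals, which contain no length either, Ercc2 also fell, but by less than the median of all genes (−0.23). On rescaled TPM, which contains the length, that median was 0.02 and Ercc2 fell. The part of the length in these directions was not tested. For Xpc and Ddb1 the effective length varied little between libraries, with SDs of 2.64 to 17.5 bases.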
